A study of Mus musculus with 43 samples.

Results

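The genes described here are 5 genes that midbrain dopamine neurons use to make, store, take back and release dopamine: Th, Ddc, Slc18a2, Slc6a3 and Chrna6. They are 5 of the 42349 entries in the deposited expression table, which covers brain, liver, skeletal muscle and inguinal white adipose tissue. They were chosen by their brain values, because each was lower in KO than in WT mice fed ad libitum and higher in KO than in WT mice on restricted food. Those brain values are therefore given as a description, with no test.

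RNA came from female mice at 15 months of age. WT mice were Irs1+/+ and KO mice Irs1-/-, a global deletion of insulin receptor substrate 1, which links the insulin and IGF-1 receptors to their downstream kinases. Mice either ate freely (AL) or were held on dietary restriction (DR), reaching 30% less food in steps and staying there for 12 months. In brain the labels give 2 libraries for WT_AL and 3 each for KO_AL, WT_DR and KO_DR, of 43 libraries in all. The sources used here name the tissue only as brain and give no region. For each gene and group the authors deposited 1 pooled FPKM value (fragments scaled to transcript length and mapped fragments) with a 95% interval. Values of single libraries were not used here, so the depth is unknown, and the spread between mice enters only through that interval.

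By its pooled values the targeted gene was not lower in most of the groups labelled KO, in brain and elsewhere. Irs1 was 2.47 FPKM in WT_AL and 3.49 in the group labelled KO_AL, and 1.62 in WT_DR against 4.14 in the group labelled KO_DR. It was also above its WT group in the groups labelled KO of liver and muscle on both diets (3.29 to 6.31 FPKM over these 8 groups) and of adipose tissue on AL (5.37 against 2.47), and below it in adipose tissue on DR alone (2.58 against 6.56). The KO names below are those of the labels, and every direction is that of the labelled groups. All 5 members had an FPKM above 0 in each brain group. Over all tested entries the median log2 difference was 0.13 for KO_AL against WT_AL and 0.23 for KO_DR against WT_DR, so the table as a whole sat slightly toward the KO groups. Subtracting those medians left the sign of every member's difference as it was.

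Dopamine neurons of the substantia nigra and ventral tegmental area send axons to the striatum and cortex, and they are known for their part in movement and reward. Tyrosine hydroxylase (Th) turns tyrosine into L-DOPA, the rate-limiting step, and DOPA decarboxylase (Ddc) turns L-DOPA into dopamine. The vesicular monoamine transporter (Slc18a2) loads dopamine into synaptic vesicles, and the dopamine transporter (Slc6a3) returns released dopamine to the neuron. Chrna6 is a nicotinic acetylcholine receptor subunit enriched on these neurons. Ddc and Slc18a2 also serve serotonin and noradrenaline neurons, and Th serves noradrenaline neurons, whereas Slc6a3 is largely particular to dopamine neurons.

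All 5 genes had the same order of brain levels: WT_AL was highest, then KO_DR, then KO_AL, and WT_DR was lowest. Their summed level was 90.7 FPKM in WT_AL, 16.2 in the group labelled KO_AL, 9.89 in WT_DR and 55.1 in the group labelled KO_DR. The intervals of WT_AL and KO_DR overlapped for each member, as did those of KO_AL and WT_DR. KO_DR and KO_AL, the neighbours in the middle, had intervals that did not overlap for Ddc, Slc6a3 and Slc18a2, and that overlapped for Th and Chrna6. Fewer dopamine neurons in the tissue taken, for which no brain region is given, and less RNA per neuron cannot be told apart in such samples.

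**Figure D1:**
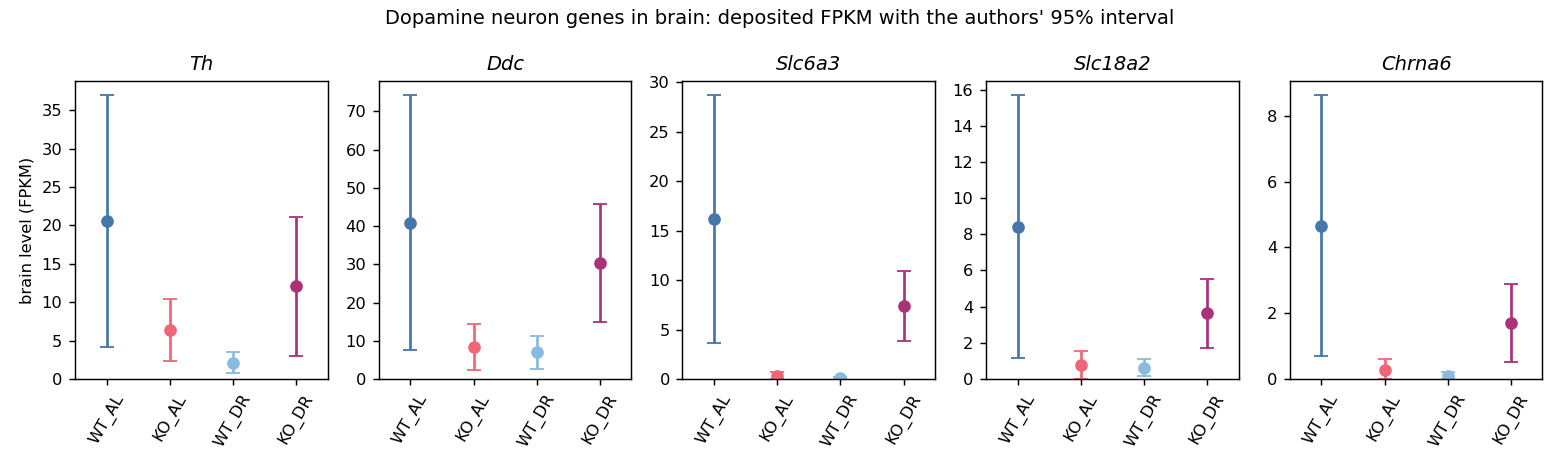
Brain level in FPKM (vertical axis, from 0, a separate scale for each gene) of the 5 genes in the 4 groups. Points are the deposited pooled values and bars the authors' 95% interval. WT_AL and KO_DR stand above KO_AL and WT_DR for each gene, and the WT_AL bars are the widest.

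The synthesis enzymes had the smallest range between groups. Th was 20.6 FPKM in WT_AL (95% interval 4.19 to 37.0), 6.39 in KO_AL (2.34 to 10.4), 2.13 in WT_DR (0.803 to 3.46) and 12.1 in KO_DR (3.03 to 21.1). Its highest group was 9.67-fold above its lowest, and only the intervals of WT_AL and WT_DR stood apart in the comparisons made. Ddc was 40.9 FPKM in WT_AL (7.45 to 74.4), 8.44 in KO_AL (2.40 to 14.5), 6.93 in WT_DR (2.58 to 11.3) and 30.3 in KO_DR (14.8 to 45.9), a range of 5.90-fold. For Ddc the group labelled KO_DR lay wholly above both KO_AL and WT_DR, whereas the wide WT_AL interval reached down to both of them.

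The transporters were below 1 FPKM in both KO_AL and WT_DR. Slc18a2 was 8.42 FPKM in WT_AL (1.15 to 15.7), 0.763 in KO_AL (0 to 1.53), 0.625 in WT_DR (0.163 to 1.09) and 3.62 in KO_DR (1.70 to 5.54). Slc6a3 spanned the widest range of the 5, 155-fold: it was 16.1 FPKM in WT_AL (3.61 to 28.7), 0.312 in KO_AL (0 to 0.676), 0.104 in WT_DR (0 to 0.231) and 7.34 in KO_DR (3.81 to 10.9). In KO_AL and WT_DR the lower bound of Slc6a3 was 0, so its fold differences against those groups are poorly fixed. In all 4 comparisons of groups its intervals did not overlap.

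The receptor subunit followed the dopamine transporter. Chrna6 was 4.66 FPKM in WT_AL (0.701 to 8.62), 0.264 in KO_AL (0 to 0.602), 0.0983 in WT_DR (0 to 0.225) and 1.70 in KO_DR (0.514 to 2.89). WT_AL lay above KO_AL and WT_DR with no overlap, and KO_DR lay above WT_DR but not clear of KO_AL.

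On the log2 scale, KO_AL less WT_AL was -1.69 (SE 0.73) for Th, -2.28 (SE 0.78) for Ddc, -3.46 (SE 0.96) for Slc18a2, -5.69 (SE 1.01) for Slc6a3 and -4.14 (SE 1.11) for Chrna6. On DR the same genotype difference had the other sign. KO_DR less WT_DR was 2.50 (SE 0.70) for Th, 2.13 (SE 0.58) for Ddc, 2.54 (SE 0.66) for Slc18a2, 6.14 (SE 0.94) for Slc6a3 and 4.12 (SE 1.05) for Chrna6. In linear terms the KO_AL levels were 3.22-fold (Th) to 51.7-fold (Slc6a3) lower, and the KO_DR levels 4.38-fold (Ddc) to 70.5-fold (Slc6a3) higher. Opposite signs alone were common: of the 14691 entries tested on both diets, 4413 (30.0%) were lower in KO on AL and higher in KO on DR. A difference of at least 1 log2 unit each way was shown by 188 entries, 1.28% of them, and each of the 5 members was among these by the way they were chosen.

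**Figure D2:**
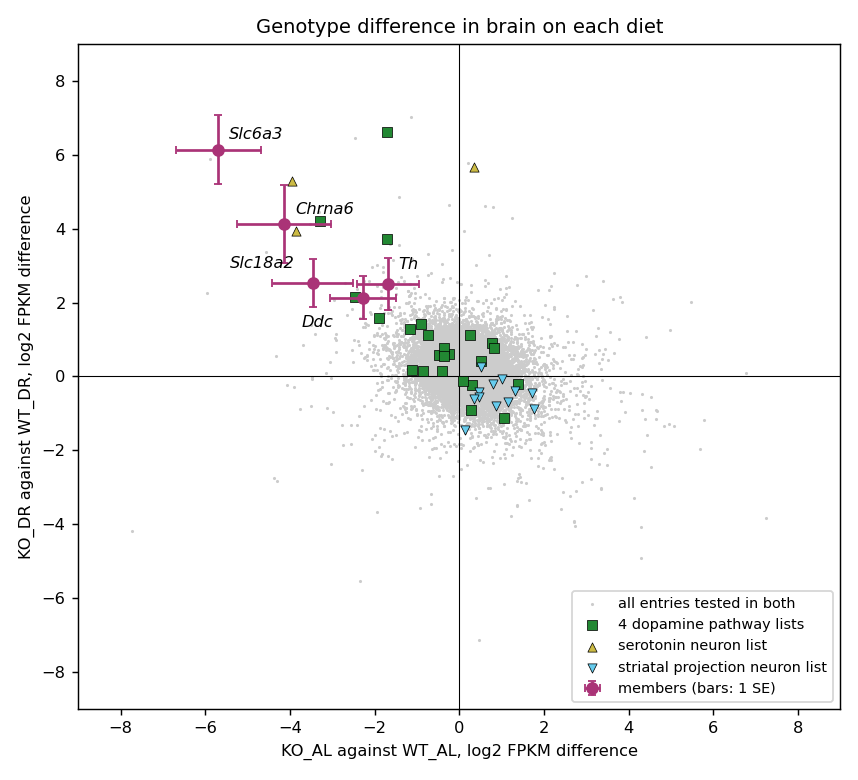
Log2 FPKM difference in brain of KO_AL against WT_AL (horizontal) and of KO_DR against WT_DR (vertical), 1 point per entry tested in both. The 5 members (bars: 1 SE) lie at the upper left, with Slc6a3 at -5.69 and 6.14, 2 serotonin neuron genes lie near them, and the striatal projection neuron genes lie to the right of 0.

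The diet comparisons, which reuse the same 4 groups, gave the matching picture within each genotype. WT_DR less WT_AL ranged from -2.56 (SE 0.74, Ddc) to -7.28 (SE 1.04, Slc6a3). KO_DR less KO_AL ranged from 0.92 (SE 0.71, Th) to 4.56 (SE 0.91, Slc6a3), and for Th the interval of this difference, -0.47 to 2.31, included 0. The genotype difference on DR less that on AL was 4.19 (SE 1.02) for Th, 4.41 (SE 0.98) for Ddc, 5.999 (SE 1.16) for Slc18a2, 11.83 (SE 1.38) for Slc6a3 and 8.26 (SE 1.53) for Chrna6. With 1 FPKM added to each value, Slc6a3 remained the member with the widest difference but its size shrank to 6.63, and that of Chrna6 to 3.46.

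Set against Th within each group, the other members did not keep fixed proportions. Slc6a3 was 0.784 times the Th level in WT_AL and 0.608 times in KO_DR, but 0.0488 times in KO_AL and 0.0489 times in WT_DR. Chrna6 moved from 0.226 times Th in WT_AL and 0.141 in KO_DR to 0.0414 in KO_AL and 0.0461 in WT_DR. Ddc stayed between 1.32 and 3.25 times Th, and Slc18a2 between 0.119 and 0.409 times. Ddc was above Th in every group, although the intervals of the pair overlapped in each.

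Outside brain the 5 genes were at or near 0, apart from Ddc in liver. Chrna6 was listed at 0 in all 12 groups of the other tissues, and Slc6a3 did not exceed 0.0154 FPKM. Th was listed at 0 in all 4 liver groups and lay between 0.170 and 0.259 FPKM in muscle and between 0.0103 and 0.0665 in adipose tissue. Slc18a2 reached 0.582 FPKM in adipose tissue of KO_DR mice. In liver, Ddc was 33.8 FPKM in WT_AL (5.92 to 61.6), 55.8 in KO_AL (28.8 to 82.7), 31.8 in WT_DR (11.7 to 51.9) and 20.2 in KO_DR (7.77 to 32.7). Liver Ddc thus differed by 0.72 (SE 0.69) in log2 units between KO_AL and WT_AL and by -0.65 (SE 0.64) between KO_DR and WT_DR, the reverse signs of those in brain, and each of these differences was about as large as its SE. KO_DR less KO_AL was -1.46 (SE 0.57) in liver, where brain had 1.84 (SE 0.63).

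**Figure D3:**
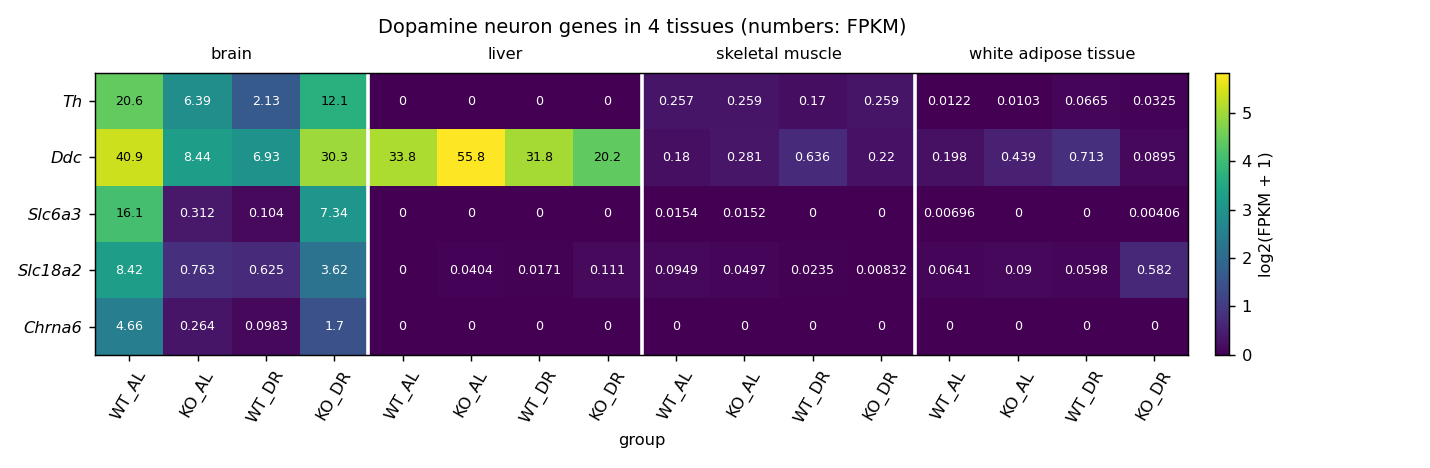
Level of the 5 genes (rows) in the 4 groups of each tissue (columns), coloured as log2(FPKM + 1) with the FPKM printed in each cell. Brain holds all 5 genes, liver holds Ddc at 20.2 to 55.8 FPKM, and the other cells lie below 1 FPKM.

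The genes lie on different chromosomes of GRCm38: Th on chromosome 7 at 142892752-142931128, Ddc on chromosome 11 at 11814101-11898144, Slc6a3 on chromosome 13 at 73536747-73578672, Slc18a2 on chromosome 19 at 59260896-59296012 and Chrna6 on chromosome 8 at 27403212-27413944. All are protein-coding, and Slc6a3 and Slc18a2 are on the plus strand. Ddc and Slc18a2 each overlap an annotated gene on the opposite strand, 1700042O10Rik and Gm29261, whose own entries did not exceed 0.0202 FPKM in any brain group. Because the 5 genes moved together, the sequences before their start sites were searched on both strands for 4 motifs: TGACGTCA (a cyclic AMP response element), AAAGGTCA (an element bound by Nr4a2), TAATCC (bound by bicoid-type homeodomains such as Pitx3) and TATAAA. RefSeq windows of 250 bases before and 50 after the start were at hand for 4 of the 5 members, with 2 windows for Ddc, but not for Chrna6. TGACGTCA occurred in the windows of Th and Slc18a2, against 1.79% of all 32851 windows. AAAGGTCA occurred in 1 Ddc window, overlapping a TATAAA, against 1.51% and 13.6% of all windows, and TAATCC (7.06% of windows) occurred in none. The Slc6a3 window held none of the 4. The 100 bases that hold these matches, and for Slc6a3 the 100 bases before its start, read as follows 5′ to 3′ on the strand of the gene, with motif matches in capitals:
Th, chr7:142899996-142900095, minus strand: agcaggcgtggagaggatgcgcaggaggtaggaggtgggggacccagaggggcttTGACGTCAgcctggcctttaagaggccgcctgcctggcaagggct
Ddc, chr11:11898145-11898244, minus strand: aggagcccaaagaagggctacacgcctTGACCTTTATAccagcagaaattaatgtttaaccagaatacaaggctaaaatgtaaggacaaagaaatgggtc
Slc18a2, chr19:59260782-59260881, plus strand: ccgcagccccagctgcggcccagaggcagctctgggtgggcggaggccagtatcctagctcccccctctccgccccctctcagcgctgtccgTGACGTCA
Slc6a3, chr13:73536647-73536746, plus strand: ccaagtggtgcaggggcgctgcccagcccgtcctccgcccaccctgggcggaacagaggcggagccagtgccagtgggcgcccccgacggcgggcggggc
The match began 45 bases before the start in Th and 4 bases before it in Slc18a2, where it runs across the start site. A match is a string of letters in the RefSeq GRCm38.p6 sequence and no evidence of binding.

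For genes that did not choose the members, the log2 differences were tested (a two-sided Wald test with a normal reference, the SE taken from the authors' intervals, Benjamini-Hochberg adjustment over all tested entries, FDR 10%). Of 33 other dopamine pathway genes in 4 lists, 24 could be tested for KO_DR against WT_DR. Of these, 4 were higher in KO_DR (En1, En2, Ret and Aldh1a1) and 0 were lower. Over all 15262 tested entries 0.989% were higher and 0.17% lower. En1 and En2 were below 1 FPKM in WT_DR (0.0262 and 0.350) and entered the test only through KO_DR, where they were higher. The sign of their calls is therefore no separate support. The tested Lmx1b, not called, entered in the same way. Ret and Aldh1a1 were above 1 FPKM in both groups. Centring on the median left 3 of the 4 calls, and changed the split over all entries from 151 higher and 26 lower to 62 and 44. For KO_AL against WT_AL, 0 of 27 tested genes passed in either direction by this test, and the background was 0.17% higher and 0.0328% lower. An unadjusted Wald p under 0.05 was held by 3 of the 27, beside 277 of all 15264 tested entries. Of these 3, Chrnb3 met the minimum only through WT_AL, where it was higher. For WT_DR against WT_AL 1 of 26 was lower and 0 higher, with a background of 0.125% lower and 0.0989% higher. For KO_DR against KO_AL 1 of 25 was higher and 0 lower (background 0.143% and 0.222%). This call was En2, which again entered only through KO_DR. In the interaction 3 of 26 were positive and 0 negative (background 0.16% and 0.236%). Genes at 0 in any group compared, or below 1 FPKM in all of them, were not tested, so these shares leave out the low end of the lists. The comparisons share groups and are not independent of each other.

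The transcription factors that specify and maintain these neurons gave 2 of the 4 calls. En1, a homeodomain factor required for their survival, was 4.59 FPKM in WT_AL, 1.40 in KO_AL, 0.0262 in WT_DR and 2.59 in KO_DR. It was higher in KO_DR than in WT_DR by 6.63 log2 units (SE 1.97) and passed the FDR of 10%, a call that is lost on centring and rests on a WT_DR value whose SD is 1.32 times the value itself. En2, its paralogue, which is also expressed in cerebellum, was 1.07, 0.327, 0.350 and 4.62 FPKM in the same order of groups, highest in KO_DR and not in WT_AL. It was higher in KO_DR than in WT_DR by 3.72 (SE 0.67) and than in KO_AL by 3.82 (SE 1.06), and both differences passed the FDR. Nr4a2, which drives Th and Slc6a3 transcription, was 7.54, 12.8, 8.90 and 16.6 FPKM with overlapping intervals and passed no test. Pitx3 was 1.32, 1.09, 0 and 0.559 FPKM, with a lower bound of 0 in each group. For KO_DR against WT_DR, En1 and En2 passed the minimum of 1 FPKM only through KO_DR, the group where they were higher. The sign of these calls is therefore no separate support, and no median is given for the tested genes of this list.

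Among 11 other genes enriched in midbrain dopamine neurons, Ret and Aldh1a1 were called. Ret, the receptor for the GDNF family of survival factors, was 8.999 FPKM in WT_AL, 1.63 in KO_AL, 1.30 in WT_DR and 5.80 in KO_DR, the same order as the members. It was higher in KO_DR than in WT_DR by 2.16 (SE 0.44), and from WT_AL to WT_DR it fell by 2.79 on the log2 scale (SE 0.64), both past the FDR. For KO_AL against WT_AL its difference of -2.47 (SE 0.79) did not pass. Aldh1a1, which clears dopamine aldehydes in a ventral subset of the neurons, was 22.7, 12.1, 9.49 and 25.3 FPKM, and rose in KO_DR over WT_DR by 1.41 (SE 0.32), which passed. Chrnb3, a partner subunit of Chrna6, was 1.26, 0.264, 0.188 and 0.767 FPKM, the members' order, with no call. Slc10a4, a vesicular protein of monoamine and cholinergic neurons held in an entry joined with Gm15847, was 4.16, 2.50, 1.61 and 3.52 FPKM, again in that order and with no call. Ntsr1, Dlk1, Cpne7 and Tacr3 had that order too, with no call. Other genes of the list did not. Kcnj6 was 7.69, 13.6, 7.41 and 12.6 FPKM, highest in KO_AL. Sncg was 16.3, 13.8, 6.01 and 9.09 FPKM, with KO_DR below KO_AL. Gucy2c, too low to be tested, was lowest in KO_AL. The tested genes of this list had a median of -0.82 for KO_AL against WT_AL (10 genes, with Chrnb3 past the minimum only through WT_AL) and 1.13 for KO_DR against WT_DR (9 genes), beside 0.13 and 0.23 over all entries.

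The remaining lists held no call in any of the 5 comparisons. In the list of biopterin cofactor synthesis and monoamine breakdown (8 genes), Gch1, which makes the cofactor of Th, was 1.70 FPKM in WT_AL and 0.371, 0.411 and 0.553 in KO_AL, WT_DR and KO_DR, so the KO_DR value did not stand near that of WT_AL. The list's medians were -0.36 for KO_AL against WT_AL (8 genes, with Gch1 past the minimum only through WT_AL) and 0.17 for KO_DR against WT_DR (7 genes, without Gch1). Over all entries they were 0.13 and 0.23. None of the receptors, which sit mostly on the target neurons, had the members' order. Drd1 was 8.23, 17.0, 14.0 and 6.43 FPKM and Drd2 4.79, 12.5, 8.64 and 7.42 FPKM, with WT_AL below KO_AL and WT_DR for both. Drd5 was 1.71, 2.03, 1.14 and 2.46 FPKM, and its KO_DR less WT_DR difference of 1.11 (SE 0.42) had the members' sign. None of the 3 passed a test, and Drd3 and Drd4 were too low to be tested.

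Some genes of other cell types and brain regions were arranged as the members were. In 10 of 21 marker lists the summed level was higher in both WT_AL and KO_DR than in both KO_AL and WT_DR, as it was for the members. In 3 lists the reverse held, and 8 had neither arrangement. The arrangement is common: 43 of 102 marker genes had it (42.2%), and so had 3720 of all 15655 entries above 0 in each group and of at least 1 FPKM in some group (23.8%). Of the 10 lists, those for noradrenaline and adrenaline neuron, histamine neuron, thalamus and astrocyte held no gene past the FDR in any comparison, so for them it is an order of sums only. For KO_AL against WT_AL 0 of the 21 lists held a call. The serotonin neuron list (4 genes) summed to 22.8, 5.17, 1.29 and 25.7 FPKM in WT_AL, KO_AL, WT_DR and KO_DR. Its defining genes Tph2, which makes serotonin, and Slc6a4, the serotonin transporter, were 10.2, 0.706, 0.449 and 6.86 FPKM and 8.70, 0.559, 0.278 and 10.9 FPKM. Both were higher in KO_DR than in WT_DR, by 3.93 (SE 1.20) and 5.29 (SE 1.17), and Slc6a4 was lower in WT_DR than in WT_AL, all 3 past the FDR. Each of these 3 calls met the minimum of 1 FPKM only through the group where the gene was higher.

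The noradrenaline and adrenaline neuron list (5 genes) summed to 8.45, 2.81, 0.610 and 5.94 FPKM, with Dbh at 2.22, 0.822, 0.124 and 3.63 and Slc6a2 at 1.14, 0.228, 0.0149 and 0.402. Since Th, Ddc and Slc18a2 also serve these neurons, part of their level can belong to them, whereas Slc6a3 at 16.1 FPKM in WT_AL marks dopamine neurons. The hindbrain and spinal cord list (5 genes) summed to 20.8, 5.51, 1.68 and 21.7 FPKM, and its glycine transporter Slc6a5 was called in 4 of the 5 comparisons. Slc6a5 was below 1 FPKM in KO_AL and WT_DR, so it met the minimum only through WT_AL or KO_DR, where it was higher. The cerebellum list (5 genes) summed to 6.57, 2.39, 2.98 and 56.4 FPKM and was thus highest by far in KO_DR, where Cbln3, Fat2 and Car8 were each higher than in WT_DR and in KO_AL. Cbln3 and Fat2 met the minimum for these comparisons only through KO_DR. The lists for hypothalamus (9 genes: 199, 47.4, 146 and 243 FPKM), choroid plexus (5 genes: 179, 60.1, 60.3 and 313), thalamus (5 genes: 45.1, 24.2, 27.0 and 56.8), histamine neuron (Hdc alone: 6.14, 1.74, 1.49 and 3.88) and astrocyte (4 genes: 357, 323, 226 and 379) shared the arrangement of sums. Not all of their genes did: 7 of 9 in hypothalamus, 5 of 5 in choroid plexus, 4 of 5 in thalamus and 2 of 4 in astrocyte. It was 3 of 4 in serotonin neuron, 4 of 5 in noradrenaline and adrenaline neuron, 3 of 5 in hindbrain and 3 of 5 in cerebellum. In these lists Gata3, Hoxb5, Cbln3 and Gabra6 were higher in KO_AL than in WT_AL, and Hoxc4 and Pnmt lower in KO_DR than in KO_AL. In hypothalamus Oxt, the oxytocin gene, was 2.01, 2.06, 27.7 and 27.5 FPKM and Avp, the vasopressin gene, 15.2, 7.94, 34.6 and 86.2 FPKM, with WT_DR above WT_AL, and both were higher in KO_DR than in KO_AL past the FDR, by 3.74 (SE 1.01) and 3.44 (SE 0.89). The astrocyte gene Aldh1l1 ran against its list, at 10.9, 19.7, 18.0 and 11.3 FPKM. The liver list (3 genes: 168, 49.0, 64.1 and 291) shared the arrangement through Ttr, a choroid plexus gene as well. Alb was lower in KO_DR than in WT_DR and met the minimum only through WT_DR.

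The 12 striatal projection neuron genes, which mark the main target of these axons, summed the other way, to 513 FPKM in WT_AL, 845 in KO_AL, 765 in WT_DR and 585 in KO_DR. None of the 12 was called by the Wald test in any comparison. Each of them was higher in KO_AL than in WT_AL, with a median log2 difference of 0.84. Over all entries the median was 0.13, so most entries were higher as well. The arrangement opposite to that of the members was held by 11 of the 12 genes. It was also held by 24 of 102 marker genes (23.5%) and by 2901 of 15655 entries (18.5%). Ppp1r1b, which encodes DARPP-32, was 96.7, 194, 149 and 143 FPKM. The microglia (4 genes: 63.3, 77.2, 71.9 and 52.5) and skeletal muscle (3 genes: 1.79, 34.1, 8.99 and 5.87) lists were also lowest in WT_AL and KO_DR. Neither arrangement was shown by the lists for all neurons (6 genes: 1607, 1895, 1724 and 1976), cerebral cortex and hippocampus (6 genes: 260, 478, 312 and 372), oligodendrocyte (4 genes: 5315, 5404, 2245 and 5281), endothelial cell (3 genes: 179, 166, 102 and 99.4), pituitary (6 genes: 23.5, 13.6, 2.38 and 4.91), olfactory bulb (5 genes: 10.3, 25.9, 10.4 and 12.6), other midbrain neurons (5 genes: 4.36, 4.60, 2.38 and 7.45) and adipocyte (3 genes: 0, 0.225, 0.236 and 0.350). Few markers were at 0: Gabra6 of cerebellum and Eomes of olfactory bulb in WT_AL, Ghrh of hypothalamus in KO_AL and WT_DR, the 3 adipocyte genes in WT_AL, and in pituitary Pou1f1 in 3 groups, Cga in KO_AL, and Gh and Prl in KO_DR. The part of these cell types and regions in the members' differences was not tested.

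Transcripts encoded by the mitochondrial genome, a list added after the values were seen, also moved against the members. Their 31 entries summed to 7.88% of all brain FPKM in WT_AL, 28.2% in KO_AL, 33.6% in WT_DR and 12.1% in KO_DR. Their part in the members' differences was not tested.

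**Figure D4:**
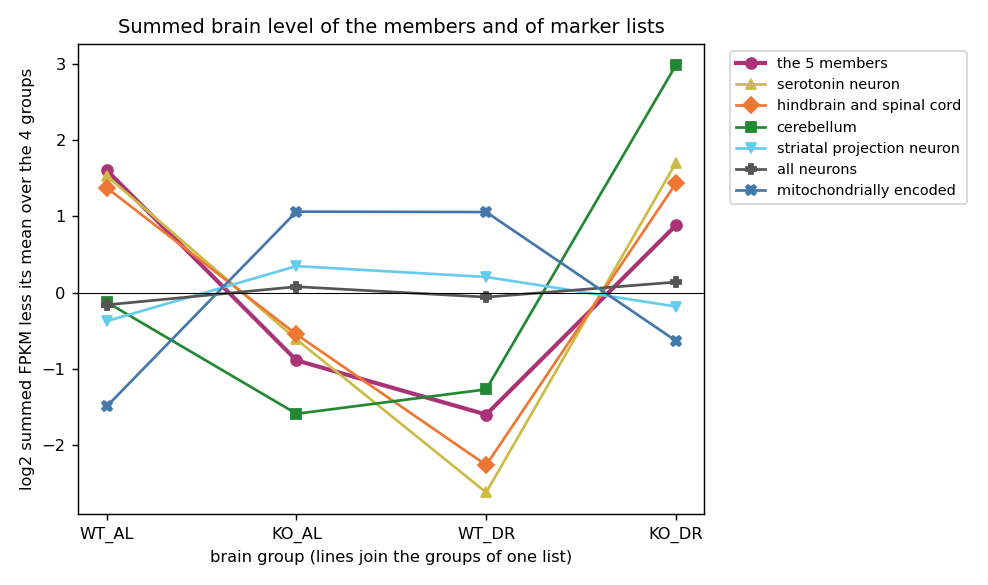
Log2 summed FPKM less its mean over the 4 brain groups (vertical) for the 5 members and 6 other lists, with lines joining the groups. The members, serotonin neuron and hindbrain lists are high in WT_AL and KO_DR, the cerebellum list is high in KO_DR, the mitochondrially encoded entries run the other way, and the all-neuron list is nearly flat.

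The entries nearest to the members' mean profile over the 4 brain groups were sought among 13509 entries of at least 1 FPKM in each group, by the root mean square distance of centred log2 values. Glra1, a glycine receptor subunit of brainstem and spinal cord (distance 0.59), was nearest and Ret (0.64) next. The rest of the nearest 15 were Gm25822, Gm8034, Spp1, Sh3bgr, Gpsm2, Zap70, Dlk1, Homer3, Epn3, Syt2, Adamts2, Hist1h2be and Hdc, at up to 0.98. The members' own distances from their mean ran from 0.36 (Slc18a2) to 1.24 (Slc6a3). The 5 entries nearest to the mirror image were Gm10925, mt-Rnr1, Gm13341, Gm28438 and mt-Nd3, with mt-Rnr1, a mitochondrial ribosomal RNA, at 678, 6936, 7624 and 940 FPKM in WT_AL, KO_AL, WT_DR and KO_DR. Since 3 of the 5 members are themselves below 1 FPKM in KO_AL and WT_DR, a wider search over 15650 entries above 0 in every group and of at least 1 in some group was added after the values were seen. It put Tph2 (0.29), C130021I20Rik (0.32) and Slc6a5 (0.49) nearest, with Chrnb3 among its 15, and shared 2 of 15 entries with the first search. With 4 groups, and a pooled value in each, likeness of profile is a description only.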

How the data were processed

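The authors removed adapters with cutadapt 1.5, trimmed low-quality ends, aligned single-end Ion Proton reads of poly(A) RNA to GRCm38 with BBmap, and ran Cuffdiff 2.2.1. They deposited 1 FPKM value per entry and group with a 95% interval. Multi-mapped reads were reweighted and libraries scaled by geometric normalization, which can move low values. The strand used in counting is not given in the sources used here.

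Groups follow the labels. The width of the upper arm of each interval was divided by 2 to give an SD, and the SE of a log2 difference by the delta method. Tested entries had status OK and an FPKM above 0 in each group compared, and of at least 1 in some group. Nothing needing counts was computed, and the test was tried on simulated data. Scripts ran in Python 3.11.15 (statsmodels 0.14.6, scipy 1.17.1, pandas 2.3.3, numpy 2.4.6, matplotlib 3.10.9). Members, lists and tests were chosen with earlier results of these data known. Named genes are the members, Irs1, preset anchors of each list, up to 3 called genes per list and comparison, and the nearest 15 and mirror 5 entries. Other genes were named after their values were seen. Of 136 listed genes, those without an exact match were found through joined entries or an older symbol (Drd1). Alternatives changed the FPKM minimum, FDR, pseudocount, centring, SD and joined entries.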

Additional observations from a re-analysis of the deposited data

Results flagged for a closer look

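For 7 listed genes outside the members the genotype difference on DR less that on AL differed from 0 (Wald test of the interaction, FDR 10%), and each was positive. Among pathway genes these were En1 at 8.34 (SE 2.201), En2 at 5.44 (SE 1.47) and Ret at 4.63 (SE 0.91). Among markers of other cells they were Tph2 of serotonin neurons at 7.79 (SE 1.65), Fat2 of cerebellum at 8.92 (SE 1.35), and Slc6a5 and Glra1 of hindbrain at 7.76 (SE 1.25) and 4.96 (SE 1.31). Over all 15655 tested entries, 25 were positive and 37 negative. En2, Tph2, Slc6a5 and Fat2 met the minimum of 1 FPKM only through WT_AL or KO_DR, the groups whose high level makes the value positive. Their sign is therefore no separate support. The En1 value rests on 0.0262 FPKM in WT_DR, with an SD 1.32 times that value. The values are log2 differences of pooled FPKM, and no value per library stands behind them here.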

How the results depend on the processing

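No paired analysis was possible because the table holds 1 pooled value per group, and for the same reason leaving out each library in turn was not run. The limits of the members' values are those of the authors' intervals, and where a lower bound is 0 the fold is poorly fixed. On simulated data with log-normal errors the Wald test kept near its FDR. Those errors were drawn with the same SD that the test was given, so this result was built in and is no support for the calls. When errors followed a gamma distribution the test exceeded its FDR, mostly for entries whose SD was large beside their FPKM. The simulated SD was capped at the FPKM value, a cap that the En1 value in WT_DR exceeds. All 25 member differences kept their sign with 1 FPKM added or on centring. Adding 1 FPKM moved 15 of them, those of Slc18a2, Slc6a3 and Chrna6, by more than 1 SE.

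Dividing each SD by the square root of the number of libraries raised the calls among pathway genes from 0 to 2 (KO_AL against WT_AL), 4 to 12 (KO_DR against WT_DR), 1 to 6 (WT_DR against WT_AL), 1 to 5 (KO_DR against KO_AL) and 3 to 10 (interaction), with 10 of the 12 and 9 of the 10 positive. Over all tested entries, 2210 were then higher and 616 lower in KO_DR than in WT_DR, in place of 151 and 26. For KO_AL against WT_AL 162 of 15264 were higher and 53 lower, and for WT_DR against WT_AL 105 of 15164 and 157. For KO_DR against KO_AL 300 of 15349 were higher and 364 lower, and in the interaction 471 of 15655 were positive and 336 negative. Some called pathway genes, En1 and En2 for KO_DR against WT_DR among them, met the minimum of 1 FPKM only through the group where they were higher. An FPKM minimum of 5 left 2 calls for KO_DR against WT_DR, 0 for KO_DR against KO_AL and 1 for the interaction, since En1 and En2 were then not tested. An FDR of 5% left 0 for KO_DR against KO_AL and 1 for the interaction. With no FPKM minimum 0 remained for KO_DR against KO_AL, and a pseudocount of 1 FPKM gave 2 for WT_DR against WT_AL. Ret kept its 3 calls, and Aldh1a1 its 1, under all 7 alternatives. En1 kept its KO_DR against WT_DR call under 3 of the 7.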
